A study of Mus musculus with 4 samples.

Results

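C-type lectin-like receptors are surface proteins that share one protein fold, the C-type lectin-like domain, with which they bind sugars, lipids or other proteins. The genes described here are 33 mouse receptors of that kind, chosen by name and found by Ensembl identifier, and all 33 were present among the 53379 genes of the count table. Their RNA was measured in tumour-associated macrophages of C57BL/6J mice that carried tumours of MC38, a mouse colon carcinoma line. The cells were sorted 21 days after implantation as positive for CD45, CD11b and F4/80. One group of 2 mice was fed a high-fat diet and the other group of 2 mice a control diet, and both groups carried the same tumour. Mice 1 and 2 of the high-fat diet are called HFD1 and HFD2 below, and those of the control diet CD1 and CD2. The labels do not give sex, age or the length of feeding, and each mouse gave 1 polyA RNA library of 34148682 to 37159552 counts.

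Receptors of this family tell a macrophage what it is touching. Some, such as Dectin-1, Mincle and DNGR-1, signal through the kinase Syk, either by a tyrosine motif of their own or by the adaptors Fcer1g and Tyrobp, and Syk can engage the adaptor Card9 and switch on inflammatory genes. Others, such as DCIR, MICL and several Ly49 receptors, carry inhibitory motifs that recruit phosphatases. A further set takes up glycoproteins for degradation or presentation, and many genes of the family lie side by side on mouse chromosome 6, in the natural killer gene complex and the neighbouring Dectin clusters. Of the 33 members, 23 lie on chromosome 6.

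Of the 33 members, 31 had enough counts to be tested with edgeR's quasi-likelihood test over 18422 genes, and 6 were called at an adjusted p below 0.05, which is 19.4% against 10.5% of all genes tested. Higher with the high-fat diet were Klra17, Klra4 and Clec2d, 3 members or 9.68% against 2.61% of all genes. Lower were Clec9a, Clec1b and Cd209a, again 3 members or 9.68%, against 7.91% of all genes. The members were picked with earlier results of these data known, so these shares describe them and test nothing. The median log2 fold change (high-fat diet minus control diet) was -0.15 over the 31 members and 0.00 over all genes, with 14 members positive and 17 negative. Added up, the 33 members had 2427 and 2217 CPM (counts scaled to library size) in HFD1 and HFD2, and 2485 and 2443 CPM in CD1 and CD2. The summed level was thus of like size in the 4 libraries while single receptors moved in opposite directions. It was carried by abundant members that edgeR did not call, Cd72 and Clec7a among them, so it says little about the called ones.

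The promoters of 4 called members that hold a match to a searched motif are shown here, those of Klra17, Klra4 and Clec2d, which rose, and of Cd209a, which fell. Each is the stretch from 250 bases before to 50 bases after the gene's start (RefSeq, GRCm38.p6, 5' to 3' on the gene's own strand). Capitals mark matches, on either strand, to 1 of 5 short motifs that were searched, TTGCNNAA (C/EBP) in Klra17 and Klra4, the IRF motif (GAAA, any 2 bases, GAAA) in Clec2d and the composite of PU.1 and IRF (GGAA, any 2 bases, GAAA) in Cd209a.
Klra17, chr6:129876623-129876922, minus strand: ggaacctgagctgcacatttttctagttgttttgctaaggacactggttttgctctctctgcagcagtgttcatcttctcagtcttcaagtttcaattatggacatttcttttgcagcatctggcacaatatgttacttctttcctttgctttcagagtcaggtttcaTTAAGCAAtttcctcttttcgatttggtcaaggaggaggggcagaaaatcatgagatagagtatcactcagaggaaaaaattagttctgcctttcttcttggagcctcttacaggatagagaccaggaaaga
Klra4, chr6:130067222-130067521, minus strand: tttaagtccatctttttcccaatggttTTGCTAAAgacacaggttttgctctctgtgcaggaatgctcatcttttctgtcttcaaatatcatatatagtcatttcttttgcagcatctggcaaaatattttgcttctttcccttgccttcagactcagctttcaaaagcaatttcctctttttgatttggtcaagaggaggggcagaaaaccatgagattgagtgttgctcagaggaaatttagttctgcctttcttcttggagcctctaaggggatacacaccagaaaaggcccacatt
Clec2d, chr6:129180365-129180664, plus strand: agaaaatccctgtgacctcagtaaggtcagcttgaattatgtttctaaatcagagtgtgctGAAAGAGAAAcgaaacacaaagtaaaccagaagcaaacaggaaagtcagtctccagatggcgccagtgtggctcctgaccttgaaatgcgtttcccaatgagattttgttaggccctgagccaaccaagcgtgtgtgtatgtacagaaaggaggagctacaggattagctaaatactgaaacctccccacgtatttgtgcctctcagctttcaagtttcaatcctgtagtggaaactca
Cd209a, chr8:3748935-3749234, minus strand: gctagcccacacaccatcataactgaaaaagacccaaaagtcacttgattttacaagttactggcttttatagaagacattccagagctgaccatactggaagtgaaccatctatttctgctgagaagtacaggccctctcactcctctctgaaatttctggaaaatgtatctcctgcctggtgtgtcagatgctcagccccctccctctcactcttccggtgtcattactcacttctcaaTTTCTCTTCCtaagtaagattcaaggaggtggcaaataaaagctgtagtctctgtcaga

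The Klra17 and Klra4 promoters were near copies, identical at 84.2% of 291 aligned bases. Their identity to the promoter of Klra2, a related receptor that was not called, was 78.2% and 76.8%. Their C/EBP matches began at different places, 82 bases before the start in Klra17 and 223 bases before it in Klra4. RefSeq promoters were found for 27 of the 33 members. Among those 27 genes the composite motif was found in 6 (Cd209a, Cd209d, Clec2i, Clec4a1, Clec7a and Klrk1), against 2.72% of all 32851 promoter windows. The C/EBP motif was found in 9 against 10.8%, the AP-1 motif TGANTCA in 6 against 7.81%, the PU.1 motif AGGAAGT in 5 against 9.35% and the IRF motif in 3 against 3.44%. A member counted when any of its windows held the motif, while the percentages are of single windows, so members and background were not counted alike. Matches of the 2 motifs that share the letters GAAA at their end can overlap. Neither Clec9a nor Clec1b held any of the 5 in this window.

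CD1 stood apart in many members, and the results below are given with that in view. Its level differed more than 2-fold from that of CD2 in 11 of 31 tested members (35.5%), against 11.4% of all genes tested. The high-fat-diet mice differed that much in 1 member, Klrk1 (3.23%, against 6.67% of all genes). Markers of several other cells were also high in that library, though not of all. Summed B cell markers were lowest there, at 11.3 CPM against 15.4 to 18.4 CPM in the other libraries. So were those of plasmacytoid dendritic cells, at 93.2 against 114 to 127 CPM, and fibroblast markers were higher in both high-fat-diet mice. Summed over the list, 6 dendritic cell markers had 111 CPM in CD1, 32.1 in CD2 and 17.3 and 20.9 CPM in the high-fat-diet mice. In the same order, 6 NK cell markers had 73.2, 16, 10.1 and 10.2 CPM, and 10 neutrophil markers 394, 193, 193 and 171 CPM. Of 9 neutrophil markers tested, 6 fell with the high-fat diet and 0 rose, against 7.91% and 2.61% of all genes. Their median log2 fold change was -4.02. In 7 of them both control-diet libraries lay above both high-fat-diet libraries, where 31.6% of all genes did so. The sum is carried by Csf3r and Mmp9, which overlapped between the diets, while S100a9 had 2.75 and 2.19 CPM in the high-fat-diet mice against 55.4 and 24.8 CPM, and Ly6g had 0 counts over the high-fat diet against 40 counts. The 9 macrophage markers, Adgre1 and Csf1r among them, had 8890, 12400, 12700 and 13400 CPM, and 0 of them were called by edgeR. The part of other cells in the members' differences was not tested beyond the values given with each gene.

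**Figure D1:**
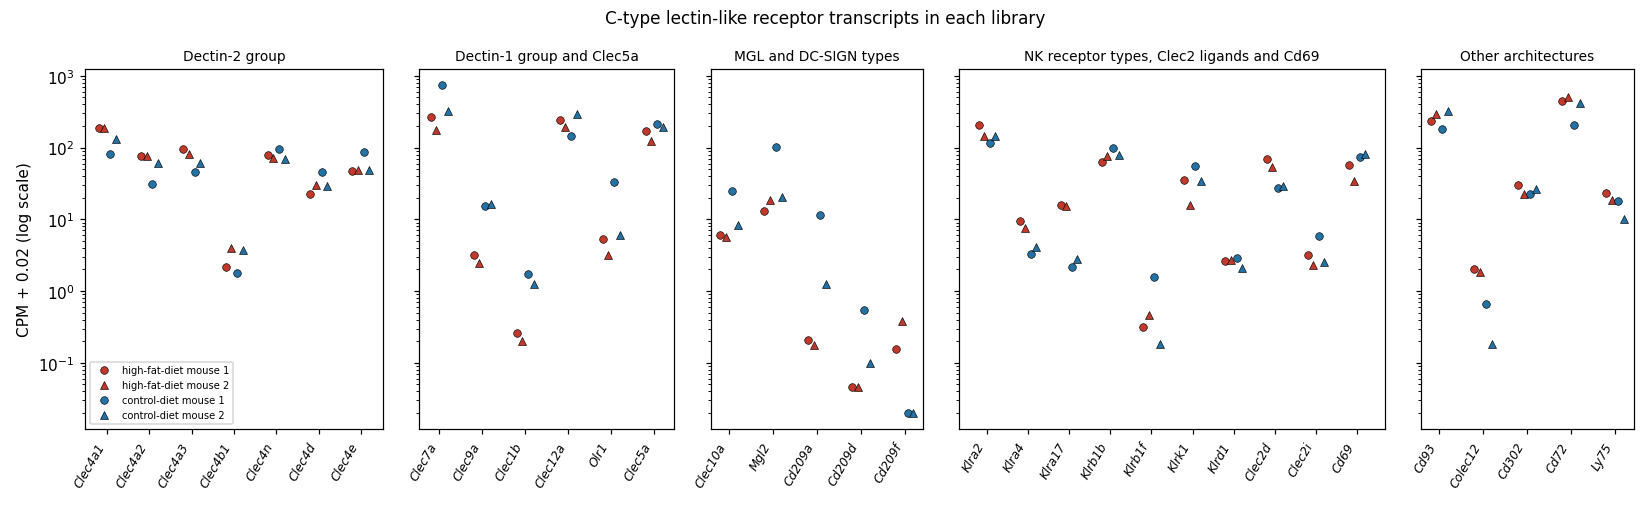
Level of each of the 33 members in each library, as CPM plus 0.02 on a log scale, in panels by kind of receptor. Red marks high-fat-diet and blue control-diet mice, circles mouse 1 and triangles mouse 2. Klra17 has both red points near 15 CPM and both blue points under 3 CPM, while in Mgl2, Olr1 and Cd209a CD1 lies far above CD2.

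Of the 3 members of the Ly49 family, 2 rose. Klra17, which encodes Ly49Q, an inhibitory receptor for MHC class I known from plasmacytoid dendritic cells and myeloid cells, had 15.6 and 15.4 CPM in the high-fat-diet mice and 2.16 and 2.8 CPM in the control-diet mice. Both high-fat-diet libraries lay far above both control libraries, and the mice of each diet lay close together. Means were 15.5 ± 0.137 and 2.48 ± 0.451 CPM (SD, n = 2 each). The gene, at chr6:129831154-129876672 (minus strand, GRCm38), rose 6.25-fold (log2 fold change 2.64, SE 0.23, edgeR adjusted p = 0.00637). Klra4, which encodes Ly49D, an activating receptor of NK cells that signals through Tyrobp, had 9.37 and 7.61 CPM against 3.24 and 4.06 CPM, again without overlap. Its means were 8.49 ± 1.25 and 3.65 ± 0.582 CPM (SD, n = 2 each). It lies at chr6:130043731-130067271 (minus strand) and rose 2.32-fold (log2 fold change 1.22, SE 0.25, adjusted p = 0.037). Klra2, which encodes the myeloid inhibitory receptor Ly49B and was the most abundant of the 3, had 210 and 146 CPM against 115 and 146 CPM (adjusted p = 0.222), with HFD2 and CD2 at nearly the same level. In bulk RNA, more cells that carry a transcript and more transcript per cell cannot be told apart.

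NK cell markers were measured beside Klra17 and Klra4. Ncr1, which encodes the NK receptor NKp46, had 0.614 and 1.25 CPM with the high-fat diet and 4.22 and 1.13 CPM with the control diet. Of the 6 NK markers 0 rose and 1 fell, Gzma. Of 5 markers of plasmacytoid dendritic cells 0 rose and 1 fell, Ly6d. Without overlap, 2 lay higher and 2 lower with the high-fat diet, against 32.2% and 31.6% of all genes. The 5 summed to 127 and 116 CPM against 93.2 and 114 CPM, of which Tcf4, a factor that other cells also express, made up 118.6 and 109.2 against 84.4 and 108.5 CPM. The siglec gene Siglech of that list had 0.294 and 0.261 against 0.832 and 0.0807 CPM. The part of these cells in the levels of Klra17 and Klra4 was not tested. Of 8 other Ly49 genes 6 were too low to be tested, and Klra7 and Klra9, which were tested, stayed under 1 CPM in every library. Of the 50-base stretches of Klra4's transcript, 4.68% also occur in transcripts of other genes, mostly Klra1, and none of Klra17's do. The call of Klra17 held without each library in turn. That of Klra4 ended without HFD1 (log2 fold change 1.08) and without HFD2 (1.38).

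The ligand gene Clec2d rose, and the gene of its receptor did not pass the test. Clec2d encodes Clr-b, a ligand by which cells hold off NK cells through receptors of the Klrb1 family. It had 69.8 and 53 CPM in the high-fat-diet mice and 27.1 and 28.8 CPM in the control-diet mice, with no overlap. Its means were 61.4 ± 11.9 and 27.9 ± 1.24 CPM (SD, n = 2 each). It lies at chr6:129180615-129186534 (plus strand) and rose 2.2-fold (log2 fold change 1.14, SE 0.18, adjusted p = 0.0219). Klrb1b, which encodes the inhibitory receptor for Clr-b, had 62.1 and 76 CPM against 98.6 and 79.9 CPM (adjusted p = 0.212). Of its 50-base stretches 27.2% also occur in other transcripts, and 599 of its exonic bases are shared with the predicted gene Gm44511 on the same strand, so its counts are uncertain. Clec2i, which encodes the related ligand Clr-g, had 3.15 and 2.29 against 5.89 and 2.53 CPM (adjusted p = 0.374). Klrb1f, the gene of a receptor that binds Clr-g, was low, with 0.294 and 0.443 against 1.54 and 0.161 CPM, and the control-diet mice lay on both sides of the high-fat-diet mice.

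The remaining NK-type genes were not called by edgeR, and DESeq2 called Cd69 lower (adjusted p = 0.0468), as did edgeR with genes of low count kept (0.0429). Klrk1, which encodes the activating receptor NKG2D, had 34.8 and 16 CPM against 54.5 and 34 CPM (adjusted p = 0.22). Klrd1, which encodes CD94, the partner of the NKG2 receptors, had 2.64 and 2.68 against 2.84 and 2.07 CPM (adjusted p = 0.809). Cd69, an early activation marker that holds the receptor S1pr1 inside the cell, had 56.9 and 34.4 CPM against 72.9 and 81.2 CPM (adjusted p = 0.102), both high-fat-diet mice lying lower. S1pr1 itself rose, with 5.98 and 11.4 CPM against 3.02 and 2.82 CPM (adjusted p = 0.043). The call of Clec2d ended without HFD1 (log2 fold change 0.94), and that of S1pr1 without HFD2 (1.05) and without CD1 (1.63). Without CD2, Clec2i (adjusted p = 0.0265) and Klrb1f (0.0174) were called lower, and without CD1 their log2 fold changes turned positive, to 0.11 and 1.18.

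In the Dectin-1 cluster 2 of 6 members fell, counting Clec5a with them, and all 6 had negative log2 fold changes, of which that of Clec12a (-0.02) turned positive with genes of low count kept, without HFD2 and without CD2. Clec9a encodes DNGR-1, a receptor of conventional dendritic cells of type 1 that binds actin filaments of dead cells and aids cross-presentation. It had 3.15 and 2.42 CPM in the high-fat-diet mice and 15.2 and 16.5 CPM in the control-diet mice. The 2 mice of each diet were close and the diets were far apart, with CD1 no higher than CD2. Means were 2.79 ± 0.514 and 15.9 ± 0.885 CPM (SD, n = 2 each). The gene, at chr6:129408862-129424763 (plus strand), fell 5.68-fold (log2 fold change -2.51, SE 0.23, adjusted p = 0.00735), and its call held without each library in turn. Of the 6 markers of those dendritic cells, 0 rose and 1 fell, Wdfy4, a gene needed for cross-presentation, with 116 and 119 CPM against 264 and 243 CPM (adjusted p = 0.0144). The chemokine receptor gene Xcr1, which these cells carry on their surface, had 8.28 and 11.4 CPM against 8.01 and 21.5 CPM (adjusted p = 0.413), and the factor gene Batf3 had 16 and 17.6 CPM against 15.2 and 11.7 CPM (adjusted p = 0.318). Without overlap, 1 of the 6 lay higher and 2 lower with the high-fat diet, against 32.2% and 31.6% of all genes. The list's summed level was 569 and 547 CPM against 880 and 812 CPM, of which the genes named here made up the smaller part. The part of these cells in the level of Clec9a was not tested.

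Clec1b, next to Clec9a, encodes CLEC-2, the receptor by which platelets and some myeloid cells bind podoplanin. It had only 9 and 7 counts in the high-fat-diet and 55 and 46 counts in the control-diet mice, or 0.24 and 0.182 CPM against 1.7 and 1.24 CPM. Its means were 0.211 ± 0.041 and 1.47 ± 0.324 CPM (SD, n = 2 each). It lies at chr6:129397297-129409335 (plus strand) and fell 6.84-fold (log2 fold change -2.77, SE 0.46, adjusted p = 0.0252). Clec1b and Clec9a share 184 exonic bases on the same strand, where reads of the one can be counted for the other, so the counts of both are uncertain there. Platelet markers moved in both directions, with Gp9 and Itga2b called lower and Ppbp called higher among 5 tested, and the list summed to 3.31 and 2.89 CPM against 12.1 and 10.4 CPM. Podoplanin, Pdpn, had 67.2 and 90.6 CPM against 77 and 93.3 CPM (adjusted p = 0.734). The call of Clec1b ended without HFD1 (log2 fold change -2.96) and without HFD2 (-2.57).

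Clec7a encodes Dectin-1, the receptor for fungal beta-glucan that signals through Syk and Card9. It had 270 and 178 CPM in the high-fat-diet mice and 744 and 327 CPM in the control-diet mice, so that the diets did not overlap but CD1 had over 2 times the level of CD2. Its log2 fold change of -1.26 (SE 0.41) did not pass with edgeR (adjusted p = 0.0982) but did with DESeq2 (0.00527). It was -0.54 without CD1 and passed at -1.73 without CD2 (adjusted p = 0.00251). Olr1, which encodes LOX-1, a scavenger receptor for oxidised LDL, had 5.34 and 3.15 CPM against 32.7 and 5.94 CPM (adjusted p = 0.113), most of the difference lying in CD1. Without that mouse its log2 fold change went from -2.18 to -0.48, and without CD2 it passed at -2.95 (adjusted p = 0.000467). Clec12a, which encodes MICL, an inhibitory receptor for uric acid crystals, had 242 and 192 CPM against 143 and 298 CPM (adjusted p = 0.97), the control-diet mice enclosing the high-fat-diet mice, and a log2 fold change of 0.60 without CD2. Clec5a, which encodes MDL-1, an activating receptor that pairs with Tyrobp, had 171 and 123 CPM against 215 and 196 CPM (adjusted p = 0.155).

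**Figure D2:**
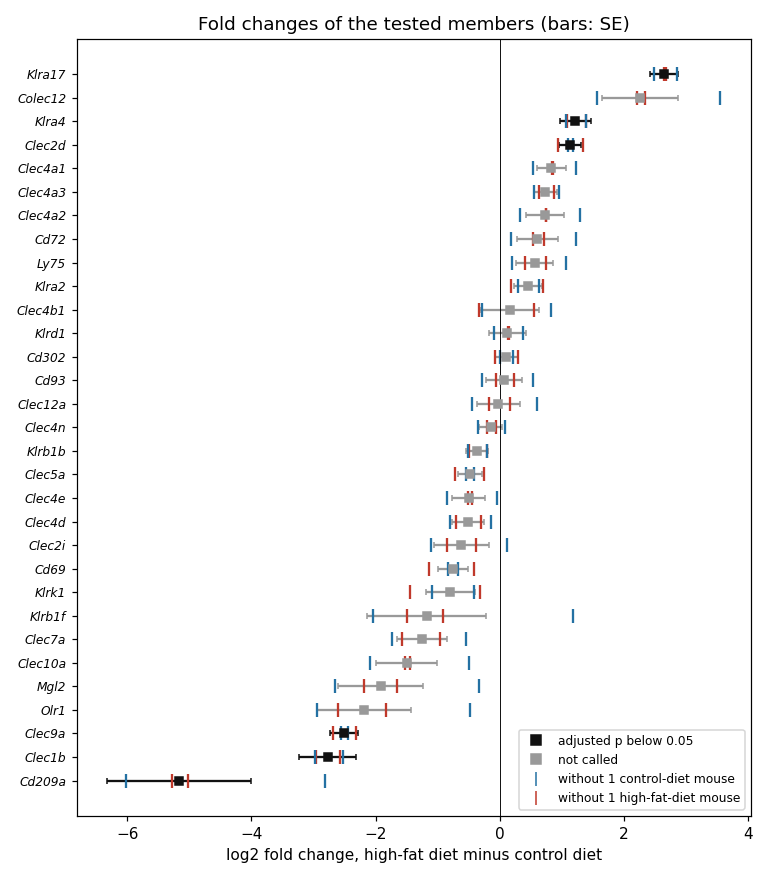
Log2 fold change (HFD minus CD) of the 31 tested members, with the SE as bars; black squares passed at an adjusted p below 0.05. Coloured ticks give the value when 1 mouse is left out. The ticks of Klra17 and Clec9a stay close to the square, while those of Mgl2, Olr1, Klrb1f and Cd209a spread widely when a control-diet mouse is left out.

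Of the 5 receptors of the galactose and mannose binding types, 3 were tested and 1 fell, Cd209a. In all 3 the highest library was that of CD1. Cd209a, a mouse relative of human DC-SIGN and a marker of monocyte-derived dendritic cells, had 7 and 6 counts in the high-fat-diet mice and 368 and 46 counts in the control-diet mice, or 0.187 and 0.156 CPM against 11.3 and 1.24 CPM. Its means were 0.172 ± 0.0216 and 6.29 ± 7.15 CPM (SD, n = 2 each). It lies at chr8:3743397-3748984 (minus strand) and fell 35.9-fold (log2 fold change -5.16, SE 1.15, adjusted p = 0.0434). Without CD1 the log2 fold change was -2.82 (adjusted p = 0.0191) and without CD2 it was -6.02 (adjusted p = 2.37e-05). The call ended without HFD1 (log2 fold change -5.28) and without HFD2 (-5.02), and also when genes of low count were kept (edgeR adjusted p = 0.301).

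Mgl2 and Clec10a lie next to each other on chromosome 11 and encode the macrophage galactose-type lectins CD301b and CD301a. Mgl2 had 13.1 and 18.8 CPM in the high-fat-diet mice and 100.3 and 20.2 CPM in the control-diet mice. CD2 lay just above the high-fat-diet mice and CD1 far above all of them. The log2 fold change was -1.92 (SE 0.68, adjusted p = 0.12), -0.33 without CD1 and -2.65 without CD2 (adjusted p = 0.000226). Clec10a had the same pattern, with 5.96 and 5.66 CPM against 24.7 and 8.23 CPM (log2 fold change -1.50, adjusted p = 0.0993 with edgeR and 0.008 with DESeq2), -0.50 without CD1 and -2.09 without CD2 (adjusted p = 3e-04). Of their 50-base stretches 13.1% of Mgl2's and 9.02% of Clec10a's occur in other transcripts, mostly in each other's. On the same stretch of the chromosome, Asgr1, a subunit of the liver's asialoglycoprotein receptor, had 0 counts in both high-fat-diet libraries and 57 counts over the control-diet libraries, and so was at least 20.7-fold lower against a floor of 3 counts over the diet (adjusted p = 0.0197).

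Other relatives of Cd209a were too low to be tested. Cd209d had 1 and 1 counts in the high-fat-diet mice against 17 and 3 counts, a ratio of 10.9 (exact 95% interval 2.64 to 96.1, counting error only). Cd209f went the other way, with 5 and 14 counts in the high-fat-diet mice and 0 counts in both control-diet mice. It was at least 5.82-fold higher against a floor of 3 counts over the diet. Of its 50-base stretches 29.8% also occur in Cd209g, which had 4 counts in the high-fat-diet libraries and 0 in the others. Dendritic cell markers had their highest level in the same library as Cd209a and Mgl2. Flt3, the growth factor receptor of dendritic cells, had 1.07 and 1.59 CPM with the high-fat diet and 11.7 and 2.04 CPM with the control diet, and Ccr7, the receptor for lymph node homing, had 2.94 and 5.63 against 30.1 and 8.5 CPM. Of the 6 markers 1 fell, Irf4, and 5 had non-overlapping diets with the high-fat diet lower, where 31.6% of all genes did so.

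**Figure D3:**
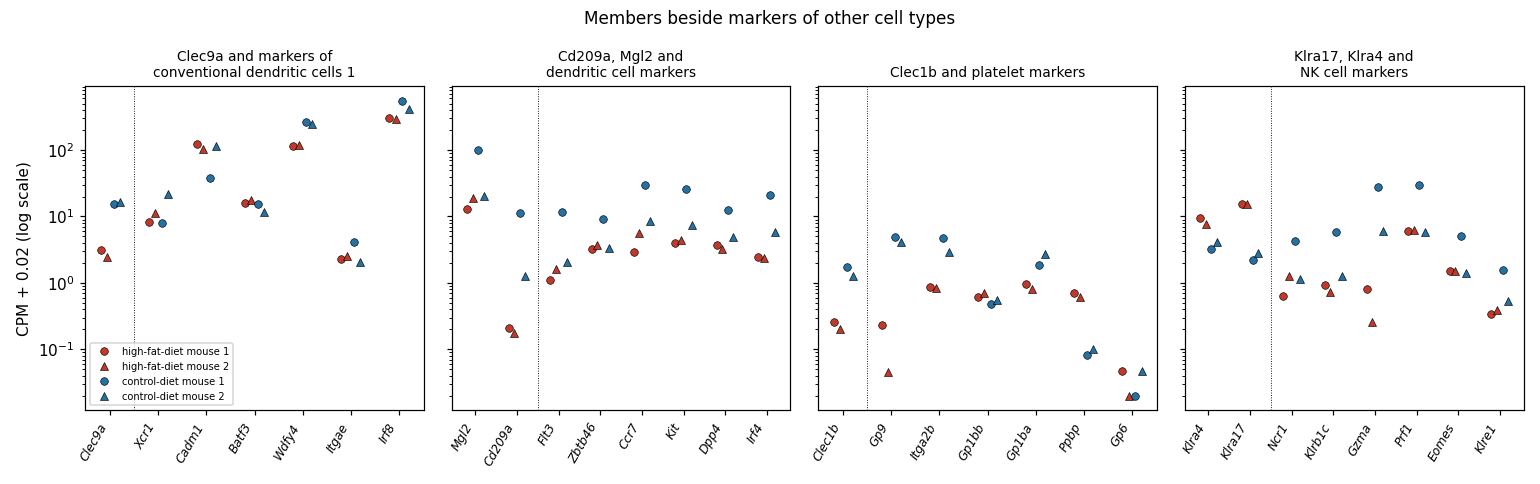
Levels of Clec9a, Cd209a and Mgl2, Clec1b, and Klra4 and Klra17 beside the marker genes of other cell types to the right of each dotted line, as CPM plus 0.02 on a log scale. Red marks high-fat-diet and blue control-diet mice, circles mouse 1 and triangles mouse 2. Dendritic cell markers share the high point of CD1 with Cd209a and Mgl2. Clec9a has both control-diet mice high, and so has the marker Wdfy4 beside it, while Xcr1 and Batf3 do not.

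In the Dectin-2 cluster edgeR called 0 of 7 members, with a smallest adjusted p of 0.0599, and 2 had an unadjusted p below 0.05. The 7 members lie within a single stretch of chromosome 6, and the 4 on one side, Clec4a1, Clec4a3, Clec4b1 and Clec4a2, had positive log2 fold changes (0.83, 0.73, 0.16 and 0.73) while the next 3, Clec4n, Clec4d and Clec4e, had negative ones (-0.15, -0.52 and -0.50). Clec4b1 (SE 0.47) and Clec4n (SE 0.18) lay within their error of 0, and without CD1 they turned to -0.28 and 0.09. DESeq2 called 2 of the 7, Clec4a1 and Clec4a3, as did edgeR with genes of low count kept (adjusted p = 0.00581 and 0.00355). The first 4 belong to the DCIR and DCAR receptors, of which Clec4a2 encodes the inhibitory receptor DCIR. The other 3 encode Dectin-2, MCL and Mincle, which bind mannans and mycobacterial or damaged-cell lipids and signal through Fcer1g.

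Clec4a1 had 190 and 188 CPM in the high-fat-diet mice against 81.4 and 131 CPM (adjusted p = 0.0757). Clec4a3 had 96.7 and 81.7 against 46.1 and 61.2 CPM (adjusted p = 0.0599), and Clec4a2 had 77 and 76.5 against 31.4 and 61.2 CPM (adjusted p = 0.163). In all 3 the diets did not overlap and CD1 was the lowest. Clec4b1 was low, with 2.16 and 4.01 against 1.76 and 3.76 CPM, and overlapped. Clec4e, which encodes Mincle, had 46.5 and 49.1 CPM against 86 and 49.5 CPM (adjusted p = 0.243), so that CD2 lay at the level of the high-fat-diet mice. Clec4d had 22.4 and 29.6 against 45.7 and 28.8 CPM (adjusted p = 0.227), and Clec4n had 77.6 and 71.2 against 94.9 and 70.1 CPM (adjusted p = 0.618). Here CD1 was the highest. Without CD2, Clec4a1, Clec4a2 and Clec4a3 were called higher (adjusted p = 0.00247, 0.00181 and 0.0091) and Clec4d and Clec4e lower (0.022 and 0.00841), and without CD1 none of the 7 was called.

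**Figure D4:**
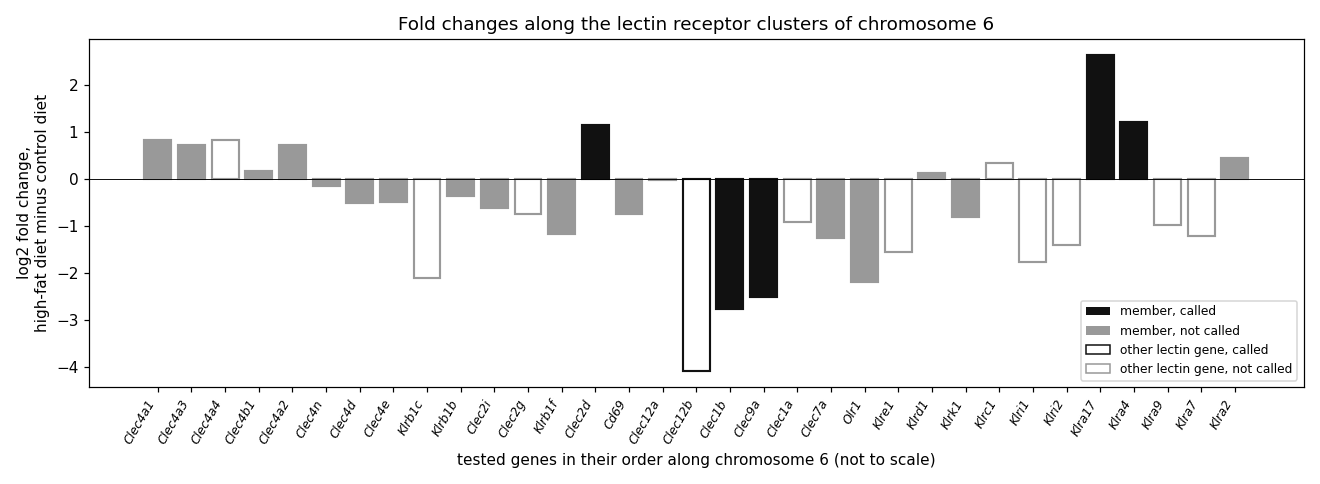
Log2 fold change, high-fat diet minus control diet, of the tested lectin genes of the lists from Clec4a1 onward, in their order along chromosome 6 and not to scale. Filled bars are members and open bars other genes of the family, black where called. Bars from Cd69 to Klre1 are all negative, with Clec12a near 0, and Clec2d and Klrd1 on either side are positive. Of the tested Ly49 genes, Klra17, Klra4 and Klra2 are positive and Klra9 and Klra7 negative.

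Farther along chromosome 6, the tested lectin genes between Clec2d and Klrd1 all had negative log2 fold changes, from Cd69 (-0.75) and Clec12a (-0.02) to Klre1 (-1.56). After Clec12a, the 6 tested genes of the Dectin-1 cluster were Clec12b (-4.08), Clec1b (-2.77), Clec9a (-2.51), Clec1a (-0.92), Clec7a (-1.26) and Olr1 (-2.18). The first 3 of these 6 were called. Clec12a, which belongs to the same cluster and lies 10.2 kb from Clec12b, was at -0.02. Clec12b, the gene of an inhibitory receptor, had 0.0534 and 0.0782 CPM against 1.57 and 0.78 CPM (adjusted p = 0.0235). Its call ended without HFD1 (log2 fold change -3.83) and without HFD2 (-4.35), and its log2 fold change was -3.49 without CD1.

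The 5 members of other architecture had positive log2 fold changes, of which those of Cd93 (without HFD2 and without CD1) and Cd302 (without HFD1) turned negative. By edgeR 0 of them were called, 1 having an unadjusted p below 0.05. Colec12, a collectin-type scavenger receptor of endothelium and stroma, had 2 and 1.82 CPM in the high-fat-diet mice and 0.647 and 0.161 CPM in the control-diet mice. The diets did not overlap (log2 fold change 2.26, SE 0.61, adjusted p = 0.0657). DESeq2 called Colec12 higher (adjusted p = 0.0183), as did edgeR with genes of low count kept (0.00452). Its log2 fold change was 3.55 without CD1, 1.56 without CD2, 2.20 without HFD1 and 2.34 without HFD2. Summed fibroblast markers had 1980 and 1950 CPM against 998 and 757 CPM, 4 of 6 called higher and 6 of 6 without overlap, where 32.2% of all genes had non-overlapping diets with the high-fat diet higher. Their part in the level of Colec12 was not tested.

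Cd72, an inhibitory receptor of B cells and macrophages, had 449 and 505 CPM against 203 and 424 CPM (adjusted p = 0.266). Of its exonic bases 1423 overlap the gene Tesk1 on the other strand, and since the strand setting of the counting is not given, reads of the pair cannot be told apart. Its log2 fold change of 0.60 was 1.23 without CD2 (adjusted p = 0.00336). Ly75, which encodes the uptake receptor DEC-205, had 23.2 and 18.3 against 18.2 and 10 CPM (adjusted p = 0.26), and was called higher without CD1 (adjusted p = 0.0251). Its neighbour Cd302 had 29.7 and 22.8 against 22.6 and 26.3 CPM (adjusted p = 0.744). Cd93, a receptor of endothelium and myeloid cells tied to the uptake of dying cells, had 236 and 290 against 181 and 322 CPM (adjusted p = 0.895). In these last 2 genes the libraries of the diets overlapped.

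Set on a scale that allows genes to be compared, CPM per kb of exon, Clec7a was the most abundant member in the control-diet mice, with 282 and 124, and at place 4 in the high-fat-diet mice, with 102 and 67.6. Cd72 led in the high-fat-diet mice, with 131 and 148 against 59.5 and 124 in the control-diet mice. The ranges of Clec7a and Cd72 met at 124 in the control-diet mice, so their order there lies within the spread between mice. Klra17 moved from place 25 of the 33 in the control-diet mice to place 15 in the high-fat-diet mice, and Cd209a from place 22 to place 31. The control-diet level of Cd209a on this scale was 7.17 in CD1 and 0.781 in CD2, so its place there rests on CD1. Clec1b, Cd209d and Cd209a were the 3 lowest in the high-fat-diet mice, each under 0.12 on this scale.

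Across the members, the diets did not overlap in 21 of 31 (67.7%), close to the 63.8% of all genes tested. In 10 of them the high-fat-diet mice were higher and in 11 lower. Leaving out HFD1, HFD2, CD1 or CD2 in turn, the number of called members fell without a high-fat-diet mouse and grew without a control-diet mouse. Over all genes, the number called moved the same way in those fits. Klra17 and Clec9a were called in each of those 4 fits, Clec2d in 3 of them, and Klra4, Clec1b and Cd209a in the 2 fits that kept both high-fat-diet mice.

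Among 24 tested adaptors, kinases and other carriers of the receptors' signals, 2 fell and 0 rose, with a median log2 fold change of -0.31, and in 16 the high-fat-diet mice lay below both control-diet mice and in 2 above. Of all genes tested, 7.91% fell and 2.61% rose, 31.6% lay lower without overlap and 32.2% higher. Plcg2, the phospholipase that Syk activates, fell, with 153 and 161 CPM against 311 and 261 CPM (adjusted p = 0.0301). Malt1, the protease that works with Card9 and Bcl10, fell, with 57.3 and 45.6 CPM against 236 and 107 CPM (log2 fold change -1.74, adjusted p = 0.04). Syk itself had 196 and 241 CPM against 463 and 336 CPM (adjusted p = 0.0525 with edgeR, 0.00369 with DESeq2 and 0.00394 with genes of low count kept), and Card9 73.2 and 85 against 102 and 80.8 CPM (adjusted p = 0.454). The adaptors did not pass with edgeR, Fcer1g having 808 and 871 against 583 and 599 CPM (adjusted p = 0.0848, and called higher by DESeq2 at 0.037 and with genes of low count kept at 0.049) and Tyrobp 408 and 410 against 447 and 380 CPM (adjusted p = 0.959). Calls of Plcg2 and Malt1 ended on leaving out HFD1 and on leaving out HFD2 (adjusted p from 0.131 to 0.261), that of Malt1 also when genes of low count were kept (0.18), and its log2 fold change was -1.05 without CD1. Without CD2, Syk was called lower (adjusted p = 0.00537).

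Genes that Syk and Card9 can induce had a median of -0.59 over 16 tested, with 3 lower and 1 higher. Of all genes tested, 7.91% were called lower and 2.61% higher. Without overlap, 11 of the 16 lay lower and 3 higher with the high-fat diet, against 31.6% and 32.2% of all genes. Il23a, a cytokine subunit, had 0.0534 and 0.104 CPM against 1.45 and 1.26 CPM (adjusted p = 0.0158), and Egr3, an early response factor, had 5.98 and 4.3 against 33.1 and 16.8 CPM (adjusted p = 0.0232). Csf3, the neutrophil growth factor, had 3 counts over the high-fat-diet libraries and 52 over the others, a ratio of 18.9 (exact 95% interval 6.11 to 94.5, counting error only, adjusted p = 0.0403). Cxcl1, a neutrophil chemoattractant, rose, with 18.1 and 18.7 against 11 and 10.1 CPM (adjusted p = 0.039). The 4 calls ended on leaving out HFD1 and on leaving out HFD2, with adjusted p from 0.0535 to 0.217.

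Of 27 tested genes with the same domain outside the members, 3 rose and 3 fell, with a median of -0.74. Of all genes tested, 2.61% rose and 7.91% fell. Without overlap, 9 of the 27 lay higher and 15 lower with the high-fat diet, against 32.2% and 31.6% of all genes. The endocytic receptors Mrc1, the mannose receptor, and Mrc2, its collagen-binding relative, both rose. Mrc2 had 23.2 and 21.1 CPM against 11.6 and 8.58 CPM (log2 fold change 1.13, adjusted p = 0.03), and Mrc1 had 153 and 168 against 103 and 81.5 CPM (adjusted p = 0.0395). Cd248, a stromal and pericyte protein, rose, with 5.18 and 6.88 against 2.44 and 1.42 CPM (adjusted p = 0.0384). Fibroblast markers summed to 1980 and 1950 against 998 and 757 CPM, and their part in the levels of Mrc2 and Cd248 was not tested. Thbd, which encodes thrombomodulin, fell, with 7.82 and 10.3 CPM against 53.7 and 31.6 CPM (log2 fold change -2.23, adjusted p = 0.0152), as did Clec12b and Asgr1. The calls of Mrc1, Mrc2, Cd248 and Asgr1 ended on leaving out HFD1 and on leaving out HFD2 (adjusted p from 0.061 to 0.162) and that of Thbd without HFD1 (0.0683).

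Of 15 tested ligands and partners of the members, 1 rose, S1pr1, and 0 fell, with a median of -0.11. Over all genes tested, 2.61% rose and 7.91% fell.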

How the data were processed

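The table the authors deposited holds counts, whole numbers of reads per Ensembl gene that were not normalised, with 1 column for each of 4 libraries. The tools named per the submitters' processing notes are BWA 0.7.12, DESeq2 1.24.0, FastQC 0.11.5 and cutadapt 1.15, with the builds GRCm38 and mm10. Per the labels' protocols, libraries came from polyA RNA with a stranded kit. For the counting program, its strand setting and how it took multiply mapped reads, the record is: not given in the sources used here.

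Symbols were matched by identifier for 53274 of 53379 genes. The test was that of edgeR 4.0.16 under R 4.3.3 (filterByExpr at count 10 and total 15, TMM scaling, robust dispersions, quasi-likelihood test with diet as the only term, Benjamini-Hochberg adjustment over 18422 genes). CPM are relative to the TMM-scaled library size, and the SE is the log2 fold change divided by the square root of F. Fits without 1 mouse take the spread of the lone mouse from the other diet. DESeq2 1.42.0, other scaling, no filter and a block on mouse number were alternatives. Each title names a mouse, so libraries were treated as animals. Members, lists and groupings were chosen with earlier results of these data known. All members were described, and of other lists the called genes of smallest p (up to 6) and Mrc1, Mrc2, Syk, Card9, Fcer1g and Tyrobp. The edgeR step was tested on simulated data. Positions and exon lengths came from GENCODE mouse release 21 (GRCm38), which holds the same identifier version for 32 of the 33 members. Repeated sequence was counted as 50-base stretches of a gene's transcripts found in other transcripts on either strand.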

Additional observations from a re-analysis of the deposited data

How the results depend on the processing

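With RLE scaling, the 6 called members were called again. DESeq2 called 6 members higher and 6 lower, and keeping genes of low count 7 higher, all 6 calls holding in the former and all but Cd209a in the latter. Over all genes, those higher were 1080 with DESeq2 and 1552 with low counts kept, and those lower with low counts kept 2231. The other lists had 21 lower with DESeq2 and 8 higher with low counts kept. The mouse numbers do not pair the samples by the labels, and deviations of same-numbered mice correlated at r = -0.19 over 10312 genes. With the number as a replicate block, 5 members were higher and 6 lower. With the numbers crossed, an alternative added after seeing the data, 4 members were called higher and 4 lower, and 909 of all genes higher. Without 1 mouse in turn, members called higher ranged from 1 to 8 and lower from 1 to 12, all genes higher from 71 to 1934 and lower from 300 to 2534, and genes of the other lists higher from 0 to 11 and lower from 0 to 31. Directions turned in 9 named genes, none of them among the called ones. On the log2 scale Clec12a was 0.02 with low counts kept and 0.06 with the block, and Tyrobp 0.03 with low counts kept. Over the fits that leave out 1 mouse, Clec12a ranged from -0.45 to 0.60, Tyrobp from -0.13 to 0.11, Clec4b1 from -0.33 to 0.82, Clec4n from -0.35 to 0.09, Clec2i from -1.11 to 0.11, Klrb1f from -2.05 to 1.18, Klrd1 from -0.09 to 0.37, Cd93 from -0.28 to 0.54 and Cd302 from -0.08 to 0.30. The cause was not tested. Cd209d and Cd209f were too low for the test used in the text, but Cd209f was called with low counts kept and Cd209d without CD2.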
